A study of Mus musculus with 12 samples.

Results

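The Cyp3a genes encode cytochrome P450 enzymes, and 8 mouse members were chosen by gene symbol: Cyp3a11, Cyp3a13, Cyp3a16, Cyp3a25, Cyp3a41a, Cyp3a41b, Cyp3a44 and Cyp3a59. Of these, 7 had counts among the 25164 genes listed, and Cyp3a41a was not analysed here. Only Cyp3a11, Cyp3a13, Cyp3a25 and Cyp3a59 had enough reads to be tested, among 13477 genes tested in all.

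RNA from whole liver was sequenced in 3 groups of mice, with 4 libraries from each group of 10 mice. HFD + fenofibrate mice were kept on a high-fat diet (HFD) for 14 weeks and had fenofibrate by gavage over the last 4 weeks; fenofibrate lowers blood lipids and is an agonist of PPARA, a nuclear receptor. HFD mice had the same diet for 14 weeks with no drug, and Control mice had a normal diet for 14 weeks. Strain, sex, age and drug dose are not stated in these sources.

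Cyp3a enzymes sit in the endoplasmic reticulum of hepatocytes and enterocytes, where they oxidise drugs, steroids and bile acids with electrons passed on by the P450 reductase Por. In liver their genes are switched on by the xenobiotic receptors PXR (Nr1i2) and CAR (Nr1i3), which pair with RXR (Rxra) and bind repeats of an AGGTCA-like hexamer. In the mouse, Cyp3a11 is the main drug-inducible member of adult liver, Cyp3a16 is best known from fetal and newborn liver, and Cyp3a41a, Cyp3a41b and Cyp3a44 are known as female-predominant.

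All 8 genes lie on chromosome 5 (GRCm38), 7 of them in 1 cluster. Cyp3a11 (ENSMUSG00000056035) spans chr5:145854426-145879964 on the minus strand. Cyp3a25 (ENSMUSG00000029630) spans chr5:145977194-146009618 on the minus strand, and its neighbour Cyp3a59 (ENSMUSG00000061292) spans chr5:146079257-146113287 on the plus strand. Cyp3a13 (ENSMUSG00000029727) lies apart at chr5:137892932-137921619 on the minus strand, where the pseudogene Gm15502 overlaps it on the same strand. The coding sequences of Cyp3a25 and Cyp3a59 matched at 97.5% of aligned bases, and those of Cyp3a41a and Cyp3a41b at 99.9%. Cyp3a11 matched Cyp3a25 at 76.3% and Cyp3a13 at 77.1%, but Cyp3a41a at 95.2%, Cyp3a44 at 94.9% and Cyp3a16 at 92.8%.

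The 4 tested genes also differed upstream of their starts. The stretch from 220 to 120 bases before the RefSeq start is shown for each (RefSeq, GRCm38.p6, 5′ to 3′ on the strand of the gene), because it holds every AGGTCA or AGTTCA hexamer, on either strand, found in their 250 upstream bases, and because the RefSeq start of Cyp3a11 lies 110 bases inside the GENCODE gene span given above, so that the last 110 of its 250 upstream bases are in that span. For Cyp3a25 and Cyp3a13 both starts are the same base. Capitals mark these hexamers. The stretches are chr5:145879974-145880074 (minus strand) for Cyp3a11, chr5:146009738-146009838 (minus) for Cyp3a25, chr5:146079038-146079138 (plus) for Cyp3a59 and chr5:137921739-137921839 (minus) for Cyp3a13.
Cyp3a11: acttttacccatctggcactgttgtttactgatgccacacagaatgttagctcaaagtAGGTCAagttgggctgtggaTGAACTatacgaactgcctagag
Cyp3a25: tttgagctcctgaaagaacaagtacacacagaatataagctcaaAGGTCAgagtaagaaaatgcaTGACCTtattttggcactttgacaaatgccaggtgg
Cyp3a59: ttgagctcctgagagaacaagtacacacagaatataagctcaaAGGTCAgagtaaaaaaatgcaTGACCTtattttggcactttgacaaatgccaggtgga
Cyp3a13: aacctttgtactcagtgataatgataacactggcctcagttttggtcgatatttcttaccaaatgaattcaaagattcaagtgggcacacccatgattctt

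The Cyp3a11 stretch held AGGTCA from 162 to 157 bases before the RefSeq start and AGTTCA, on the other strand, from 142 to 137. Its first hexamer is the second arm of a direct repeat spaced by 4 bases (AGNTCANNNNAGNTCA, matched by agctcaaagtaggtca from 172 to 157 bases before the start). Cyp3a25 and Cyp3a59 instead shared a direct repeat spaced by 1 base (AGNTCANAGNTCA, matched by agctcaaaggtca) that overlaps their first AGGTCA, with a second AGGTCA on the other strand. Their 250 upstream bases matched at 95.6% of aligned bases. In the Cyp3a13 window neither the hexamers nor the repeats searched were found. AGGTCA was present in 13.8% and AGTTCA in 11.9% of 27025 mouse promoters of the same length, the repeat spaced by 4 in 0.111% and the repeat spaced by 1 in 0.167%. Neither the repeat spaced by 3 (AGNTCANNNAGNTCA, 0.0555% of promoters) nor the everted repeat spaced by 6 (TGANCTNNNNNNAGNTCA, 0.037%) occurred in the 250 upstream bases of these 4 genes. These are matches of letters only, and binding was not measured.

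Library totals ran from 15797016 to 18514481 counts, and levels are given as scaled CPM (counts brought to a common library size by TMM). Pancreatic acinar markers summed to 1952 scaled CPM in HFD + fenofibrate library 1, against at most 30.1 in any other library. Striated muscle markers summed to 142 in HFD + fenofibrate library 1 and 105 in library 3, against at most 1.01 in any other library; their part in the drug results was not tested. Values without these 2 libraries are given beside the results of the drug. The 11 hepatocyte markers with counts summed to 104922 to 140129 in HFD + fenofibrate, 123221 to 152654 in HFD and 139649 to 170558 in Control libraries, and Alb alone made up 65.0% to 70.8% of the sum. Of these 11, 2 were lower in HFD than in Control livers, 2 were higher and 4 lower with fenofibrate than in HFD livers, and 2 were lower with fenofibrate than in Control livers. The 7 enterocyte markers with counts summed to 241 to 261 in HFD + fenofibrate, 278 to 338 in HFD and 190 to 219 in Control libraries, nearly all of it from Fabp2, Apoa4, Lgals4 and Anpep, which liver also expresses; of these 4, 3 were higher in HFD than in Control livers, 2 were lower with fenofibrate than in HFD livers and 2 were higher with fenofibrate than in Control livers. Vil1 was at most 0.684 scaled CPM, Cdh17 at most 0.0622 and Krt20 at most 0.0487 in any library. Erythroid markers summed to 175 to 1060 scaled CPM in HFD + fenofibrate, 390 to 467 in HFD and 238 to 506 in Control libraries. Cholangiocyte markers summed to 27.2 to 52.7, 31.7 to 83.9 and 41.9 to 81.5 in these groups. Of 5 erythroid markers tested, 1 was higher in HFD than in Control livers and 1 was lower with fenofibrate than in HFD livers. Of 5 cholangiocyte markers tested, 1 was lower in HFD than in Control livers. None of 8 macrophage and 5 B cell markers tested passed the threshold in any comparison, and of 6 endothelial markers 1 did, lower in HFD + fenofibrate than in HFD livers. Every library had Ddx3y, a Y-linked gene, at 36.4 to 52.9 scaled CPM, and Xist at no more than 0.324. In RNA of whole liver, fewer cells of a type and less RNA per cell cannot be told apart, and the labels do not say which animal gave which library, so p-values reflect only how these libraries vary.

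In HFD livers all 4 tested members were lower than in Control livers, Cyp3a11 and Cyp3a59 by over 5-fold and Cyp3a25 and Cyp3a13 by under 2-fold. Cyp3a11, the main drug-metabolising member, stood at 2048, 1662, 1865 and 1453 scaled CPM in the 4 HFD libraries, against 9681, 11531, 11565 and 10205 in the 4 Control libraries. Every HFD library was far below every Control library. The fitted level was 6.12-fold lower (log2 fold change -2.61 ± 0.18 SE, adjusted p = 6.2e-07). Set against hepatocyte markers of the same library, Cyp3a11 had 13.4, 12.9, 15.1 and 10.1 scaled CPM per 1000 of marker sum in HFD livers, against 69.3, 67.6, 79.6 and 64.0 in Control livers. These values did not overlap either, nor did they with Alb left out of the sum (32.9 to 49.5 in HFD and 218 to 240 in Control livers).

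Cyp3a59, a little-described neighbour of Cyp3a25, was the other strongly lowered member. It stood at 23.1, 14.8, 26 and 15 scaled CPM in HFD livers, against 116, 87.7, 130 and 76.3 in Control livers. The groups did not overlap, and the Control libraries spread widely among themselves. The fitted level was 5.20-fold lower (log2 fold change -2.38 ± 0.21 SE, adjusted p = 6.7e-06).

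Cyp3a25, an abundant liver member, stood at 1131, 729, 888 and 734 scaled CPM in HFD livers, against 1746, 1726, 1532 and 1458 in Control livers. It was 1.86-fold lower, with no overlap between the groups and HFD library 1 the nearest to Control (log2 fold change -0.89 ± 0.15 SE, adjusted p = 0.0013). Cyp3a13, the member outside the cluster, stood at 203, 163, 184 and 163 scaled CPM in HFD livers, against 307, 297, 321 and 324 in Control livers. It was 1.75-fold lower, again without overlap (log2 fold change -0.81 ± 0.12 SE, adjusted p = 0.00046). Of all 13477 genes tested, 6.64% were lower and 6.13% higher in HFD livers at the adjusted p threshold of 0.05 (12.8% in either direction), and 0.334% were lower by more than 2 on the log2 scale, as Cyp3a11 and Cyp3a59 were. Lower values without overlap were seen for 9.16% of genes.

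**Figure D1:**
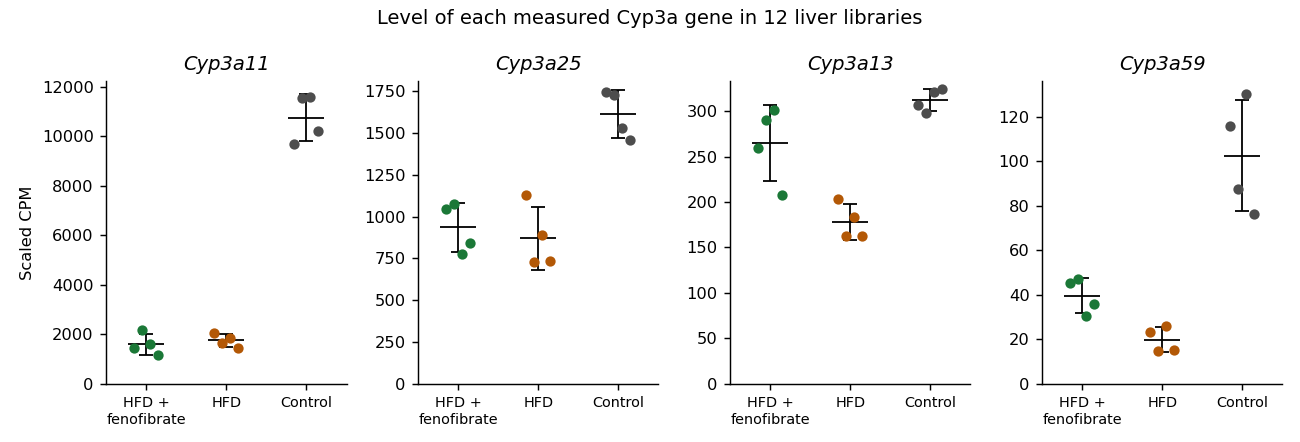
Level of the 4 tested Cyp3a genes in 12 liver libraries, in scaled CPM on linear axes that start at 0 and differ between genes. Points are libraries and lines the mean ± SD of 4 libraries in HFD + fenofibrate, HFD and Control livers. For Cyp3a11 all HFD + fenofibrate and HFD libraries sit at or below 2160, under all Control libraries, while for Cyp3a13 the HFD + fenofibrate and Control libraries overlap.

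The fall was unequal between members. The ratio of Cyp3a11 to Cyp3a25 reads ran from 1.81 to 2.28 in HFD livers, against 5.55 to 7.55 in Control livers. The ratio needs no scaling of libraries, and it was lower by 1.71 on the log2 scale (HFD minus Control -1.71, two-sided exact permutation p = 0.029, the smallest possible with 4 against 4, adjusted p = 0.034 over 12 ratio tests). The ratio of Cyp3a11 to Cyp3a13 ran from 8.93 to 10.2 in HFD livers, against 31.5 to 38.8 in Control livers (HFD minus Control -1.80 on the log2 scale, exact permutation p = 0.029, adjusted p = 0.034). Cyp3a59 fell more than its near-identical neighbour Cyp3a25: their log2 ratio averaged -5.48 ± 0.26 (SD, n = 4) in HFD livers and -4.01 ± 0.35 in Control livers (exact permutation p = 0.029, adjusted p = 0.034). The log2 ratio of Cyp3a59 to Cyp3a11 averaged -6.51 ± 0.27 in HFD livers and -6.74 ± 0.36 in Control livers, with overlap and no difference past the threshold (HFD minus Control 0.23, exact permutation p = 0.29). Both ratios with Cyp3a59 were chosen after its values were seen.

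With fenofibrate on the high-fat diet, Cyp3a13 and Cyp3a59 rose relative to HFD alone, while Cyp3a11 and Cyp3a25 gave no difference past the threshold. Cyp3a59 stood at 45.1, 46.9, 30.3 and 35.8 scaled CPM in HFD + fenofibrate livers, against 23.1, 14.8, 26 and 15 in HFD livers. The lowest treated library lay just above the highest HFD library. The fitted level was 2.0-fold higher (log2 fold change 1.0 ± 0.21 SE, adjusted p = 0.0080). Cyp3a13 stood at 259, 290, 301 and 208 scaled CPM in HFD + fenofibrate livers, against 203, 163, 184 and 163 in HFD livers. Here too the groups did not overlap, with treated library 4 close to HFD library 1, and the level was 1.48-fold higher (log2 fold change 0.57 ± 0.12 SE, adjusted p = 0.0074). Of all genes tested, 6.89% were higher and 6.59% lower with fenofibrate (13.5% in either direction), and 10.4% were higher without overlap.

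Both calls were lost without the 2 libraries that held transcripts of other tissues. Without HFD + fenofibrate libraries 1 and 3, a choice made after the data were seen, the changes were of like size (1.07 for Cyp3a59 and 0.49 for Cyp3a13 on the log2 scale) but adjusted p was 0.062 and 0.13, and 124 of all genes tested were called, against 1816 with all libraries. With any 1 library left out, adjusted p ran from 0.0054 to 0.030 for Cyp3a59 and from 0.0023 to 0.031 for Cyp3a13.

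Cyp3a11 stood at 1435, 2160, 1610 and 1157 scaled CPM in HFD + fenofibrate livers, against 2048, 1662, 1865 and 1453 in HFD livers. The treated libraries covered the whole HFD range. The log2 fold change was -0.14 (95% interval -0.50 to 0.21, adjusted p = 0.59), and scaling by total counts alone turned it to 0.01 (adjusted p = 0.96). Cyp3a25 stood at 1043, 1077, 778 and 844 scaled CPM in HFD + fenofibrate livers, against 1131, 729, 888 and 734 in HFD livers. These groups overlapped as well (log2 fold change 0.10, 95% interval -0.21 to 0.42, adjusted p = 0.67).

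The ratios separated the members again. The ratio of Cyp3a11 to Cyp3a13 ran from 5.35 to 7.44 in HFD + fenofibrate livers, against 8.93 to 10.2 in HFD livers (HFD + fenofibrate minus HFD -0.73 on the log2 scale, exact permutation p = 0.029, adjusted p = 0.034). The log2 ratio of Cyp3a59 to Cyp3a25 averaged -4.57 ± 0.08 in HFD + fenofibrate livers and -5.48 ± 0.26 in HFD livers, a difference of 0.91 with no overlap (SD, n = 4 each, exact permutation p = 0.029, adjusted p = 0.034). The log2 ratio of Cyp3a59 to Cyp3a11 was higher by 1.19 (-5.32 ± 0.37 in HFD + fenofibrate, -6.51 ± 0.27 in HFD livers, exact permutation p = 0.029, adjusted p = 0.034). For Cyp3a11 to Cyp3a25 the log2 ratio averaged 0.74 ± 0.33 in HFD + fenofibrate livers and 1.03 ± 0.14 in HFD livers, with overlap (exact permutation p = 0.23, adjusted p = 0.25). Without HFD + fenofibrate libraries 1 and 3 these differences were -0.61 for Cyp3a11 to Cyp3a13, 0.94 for Cyp3a59 to Cyp3a25, 1.24 for Cyp3a59 to Cyp3a11 and -0.30 for Cyp3a11 to Cyp3a25, with overlap only in the last of these.

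**Figure D2:**
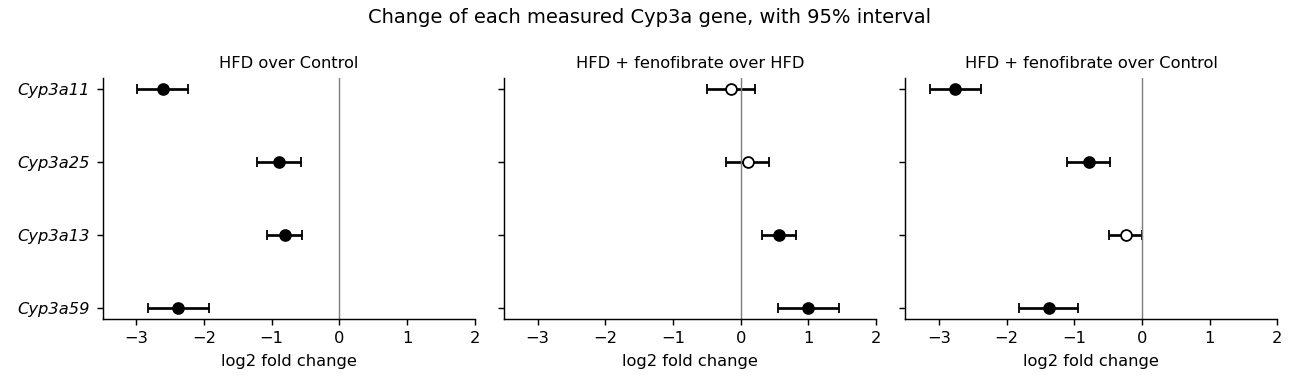
Log2 fold change of the 4 tested Cyp3a genes with 95% intervals from edgeR's quasi-likelihood fit, for HFD over Control, HFD + fenofibrate over HFD and HFD + fenofibrate over Control. Filled points have an adjusted p under 0.05. Cyp3a11 sits at -2.61, -0.14 and -2.76 in the 3 panels, and Cyp3a13 and Cyp3a59, at 0.57 and 1.0, are the filled points of the middle panel.

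Set against the normal diet, HFD + fenofibrate livers had Cyp3a11, Cyp3a59 and Cyp3a25 lower, and Cyp3a13 overlapped Control. These values share the Control and treated libraries with the comparisons above. The Cyp3a11 level was 6.76-fold lower (1591 ± 423 scaled CPM in HFD + fenofibrate, 10745 ± 951 in Control livers, SD, n = 4 each, log2 fold change -2.76 ± 0.18 SE, adjusted p = 4.4e-07), and 13.4, 15.4, 15.3 and 9.91 per 1000 of hepatocyte marker sum in treated livers were all far below the Control values given above. Cyp3a59 was 2.60-fold lower (39.5 ± 7.86 scaled CPM in HFD + fenofibrate, 103 ± 24.8 in Control livers, log2 fold change -1.38 ± 0.21 SE, adjusted p = 0.00088). Cyp3a25 was 1.73-fold lower (936 ± 147 in HFD + fenofibrate, 1615 ± 143 in Control livers, log2 fold change -0.79 ± 0.15 SE, adjusted p = 0.0044).

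For all 3 lowered genes the highest treated library was below the lowest Control library. Cyp3a13 averaged 264 ± 41.8 scaled CPM in HFD + fenofibrate and 312 ± 12.4 in Control livers, with a log2 fold change of -0.24 (95% interval -0.49 to 0.01, adjusted p = 0.22). Treated library 3, at 301, lay above the lowest Control library, at 297. This overlap rests on that library, which held striated muscle transcripts. The other treated libraries, at 259, 290 and 208, were below every Control library. Under none of the alternatives was Cyp3a13 called here (adjusted p from 0.16 to 0.88). Of all genes tested, 4.31% were lower and 4.86% higher in HFD + fenofibrate than in Control livers (9.17% in either direction), and 0.23% were lower by more than 2 on the log2 scale, as Cyp3a11 was. Lower values without overlap were seen for 6.26% of genes. Without HFD + fenofibrate libraries 1 and 3, the same 3 members were lower at adjusted p = 6.8e-05 for Cyp3a11, 0.017 for Cyp3a59 and 0.048 for Cyp3a25.

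These shifts changed the make-up of the family. The 7 measured members together held 0.307 ± 0.045% of all counts in HFD + fenofibrate, 0.274 ± 0.038% in HFD and 1.20 ± 0.072% in Control livers (SD, n = 4 each). Cyp3a11 made up 55.7 ± 4.80% of the family's reads in HFD + fenofibrate, 62.3 ± 1.97% in HFD and 84.0 ± 1.61% in Control livers. Cyp3a25 made up 33.5% in HFD + fenofibrate, 30.7% in HFD and 12.7% in Control livers. Cyp3a13 made up 9.43% in HFD + fenofibrate, 6.35% in HFD and 2.46% in Control livers. Cyp3a59 stayed a minor member, at 1.41% in HFD + fenofibrate, 0.692% in HFD and 0.803% in Control livers. These shares are descriptions without a test, and a share can move because another member moved.

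**Figure D3:**
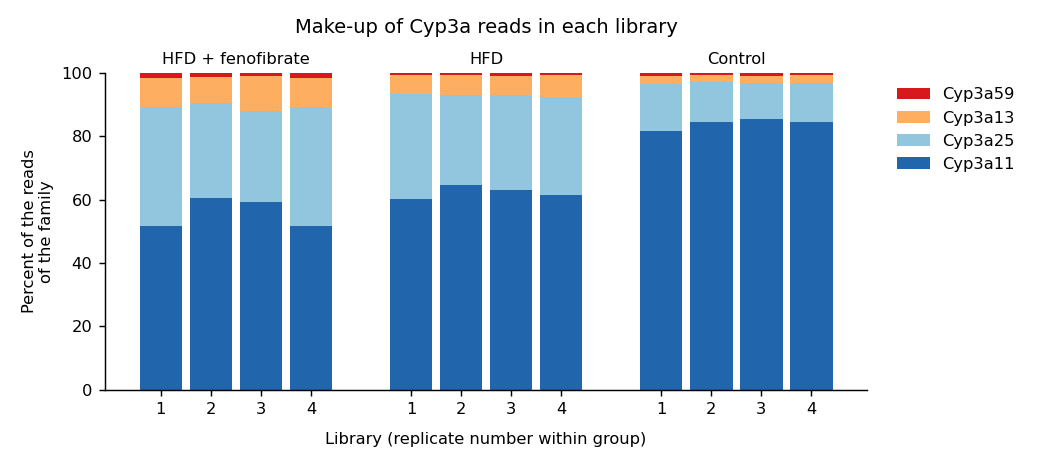
Make-up of Cyp3a reads in each of 12 libraries, in percent of the reads of the family, with the 4 libraries of HFD + fenofibrate, HFD and Control livers numbered within their group. Bars stack Cyp3a11, Cyp3a25, Cyp3a13 and Cyp3a59 from the bottom, and the other members are too few to draw. Cyp3a11 takes 51.5% to 60.4% in HFD + fenofibrate, 60.1% to 64.7% in HFD and 81.7% to 85.4% in Control libraries.

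Levels of different members were compared per kb of coding sequence, as scaled CPM per kb. The order was Cyp3a11, Cyp3a25, Cyp3a13, Cyp3a59 in every group. Cyp3a11 had 1052 ± 280 in HFD + fenofibrate, 1162 ± 170 in HFD and 7107 ± 629 in Control livers (SD, n = 4 each), and Cyp3a25 had 620 ± 97.3 in HFD + fenofibrate, 577 ± 125 in HFD and 1070 ± 94.4 in Control livers. Cyp3a13 had 175 ± 27.7 in HFD + fenofibrate, 118 ± 13 in HFD and 207 ± 8.19 in Control livers, and Cyp3a59 had 26.2 ± 5.21 in HFD + fenofibrate, 13.1 ± 3.77 in HFD and 67.9 ± 16.4 in Control livers. Neighbours in this order did not overlap within a group. The order of Cyp3a11 and Cyp3a25 depended on the length used. All annotated exons of Cyp3a11 include a retained intron. Per kb of all exons, Cyp3a11 had 312 in HFD + fenofibrate and 345 in HFD livers, below 449 and 418 for Cyp3a25. In Control livers it stayed above, at 2110 against 775. Per kb of a coding transcript of each gene, Cyp3a11 was above Cyp3a25 in every group. It had 679 against 468 in HFD + fenofibrate, 750 against 435 in HFD and 4584 against 808 in Control livers.

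Near-identical sequence limits how reads can be assigned. Of all 100-base windows along the transcript, 6.05% of those of Cyp3a25 and 5.61% of those of Cyp3a59 occurred in the other gene as well, against 0.312% for Cyp3a11 (with Cyp3a16 and Cyp3a44) and 0 for Cyp3a13. For Cyp3a41b it was 88.2%, shared with Cyp3a41a. With 50-base windows the shares were 26.8% for Cyp3a25, 28.0% for Cyp3a59, 14.8% for Cyp3a11 and 0 for Cyp3a13, and with 150-base windows 0.702%, 0.706%, 0 and 0 for these genes. For Cyp3a44 the share was 26.5% with 50-base and 5.37% with 100-base windows, and for Cyp3a16 10.7% and 0.123%, with Cyp3a11 among the sharing genes. Read length and the treatment of reads with several matches are not stated in these sources. Values of Cyp3a59, Cyp3a25, Cyp3a44, Cyp3a16 and above all Cyp3a41b therefore carry this uncertainty. The ratio of Cyp3a59 to Cyp3a25 did not stay constant between the groups.

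The remaining members were at or near 0 in all groups. Cyp3a44 had 1, 2, 0 and 1 reads in HFD + fenofibrate, 0, 2, 0 and 0 in HFD and 1, 7, 16 and 5 in Control libraries. Relative to library totals the HFD reads were 0.0725 of the Control reads (2 against 29 reads, exact 95% interval 0.00838 to 0.287) and the HFD + fenofibrate reads 0.135 of them (4 against 29, 0.0344 to 0.383), intervals that cover counting error only. With no low-count filter, edgeR gave Cyp3a44 an adjusted p of 0.024 for HFD and 0.045 for HFD + fenofibrate against Control, DESeq2 gave no adjusted p, and the authors' deposited table has 0.040 for HFD against Control. Whether some of these reads came from Cyp3a11, which had 700878 reads over the Control libraries, was not tested.

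Cyp3a16 had 4, 1, 0 and 0 reads in HFD + fenofibrate, 0, 1, 0 and 1 in HFD and 34, 3, 0 and 1 in Control libraries. Nearly all Control reads came from library 1. The ratio of HFD to Control reads was 0.0553 (2 against 38 reads, interval 0.00647 to 0.214), but 0.390 without Control library 1 (2 against 4, interval 0.0353 to 2.72), and with no low-count filter edgeR gave an adjusted p of 0.043 for HFD against Control. Cyp3a41b had 1 read, in Control library 2, and none in the other 11 libraries. A count of 0 over the 4 libraries of a group allows up to 0.0422 CPM of assigned reads in HFD + fenofibrate and 0.0454 in HFD livers (3 counts). This covers counting error only and does not limit the level of Cyp3a41b, since reads that match Cyp3a41a as well may not have been assigned. Cyp3a57, the only other Cyp3a gene listed, had 1 read in HFD + fenofibrate, 2 in HFD and 2 in Control libraries.

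**Figure D4:**
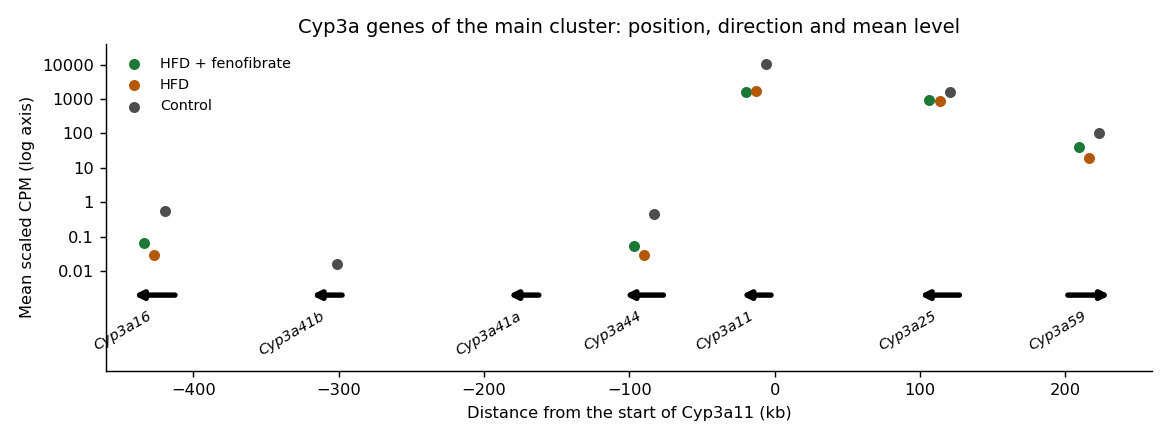
The 7 members of the main Cyp3a cluster by distance from the start of Cyp3a11 in kb, with arrows giving the direction of transcription, and the mean scaled CPM of 4 libraries in HFD + fenofibrate, HFD and Control livers above each gene on a log axis. Means of 0 are not drawn, Cyp3a41a has no value, and Cyp3a13 lies outside the window. The abundant genes Cyp3a11 and Cyp3a25 and the less abundant Cyp3a59 sit at one end, and Cyp3a16, Cyp3a41b and Cyp3a44 stay below 1 scaled CPM in every group.

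Neither xenobiotic receptor was lower in HFD than in Control livers. PXR (Nr1i2) averaged 101 ± 9.61 scaled CPM in HFD and 96.6 ± 4.26 in Control livers (log2 fold change 0.07, adjusted p = 0.69). CAR (Nr1i3) was higher, at 25.9 ± 2.22 in HFD and 20.2 ± 1.63 in Control livers (0.36, adjusted p = 0.045). Rxra (0.14, adjusted p = 0.55), Hnf4a (-0.05, adjusted p = 0.83) and Ppara (0.48, adjusted p = 0.084) gave no difference past the threshold. Of 17 tested receptors and transcription factors known to act on Cyp3a genes, 3 rose and 2 fell in HFD livers, with a median log2 fold change of 0.14, against 12.8% called in either direction and a median of -0.02 for all genes tested.

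Among these, the co-repressor SHP (Nr0b2) rose (86.2 ± 39.2 scaled CPM in HFD, 35.9 ± 5.39 in Control livers, 1.26, adjusted p = 0.024) in HFD livers, as did the glucocorticoid receptor Nr3c1 (0.54, adjusted p = 0.00096). With fenofibrate against HFD, 2 of the 17 rose and 1 fell, against 13.5% called among all genes, with Rxrb higher (0.28, adjusted p = 0.042) and Nr3c1 lower (-0.42, adjusted p = 0.0076). Nr1i2 was at 87.7 ± 4.45 in HFD + fenofibrate and 101 ± 9.61 in HFD livers (-0.21, adjusted p = 0.13), Nr1i3 had a log2 fold change of 0.21 (adjusted p = 0.21) and Ppara of -0.19 (adjusted p = 0.48). Against Control, treated livers had 2 of the 17 higher and none lower, against 9.17% called among all genes, Nr1i3 (0.57, adjusted p = 0.0051) and the oxysterol receptor Nr1h3 (0.30, adjusted p = 0.029). With treated libraries 1 and 3 left out, none of the 17 was called against HFD, where 0.898% of all genes were, and Nr1i3 was the 1 called against Control (0.72, adjusted p = 0.0097), where 2.7% of all genes were.

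Por, which passes electrons to every microsomal P450 enzyme, fell on the diet and was higher with the drug than on the diet alone. It averaged 295 ± 40.4 scaled CPM in HFD and 930 ± 206 in Control livers (log2 fold change -1.66, adjusted p = 2.4e-05). With fenofibrate it averaged 610 ± 123, against 295 ± 40.4 in HFD livers (1.05, adjusted p = 0.0022), and it was below Control by 0.61 on the log2 scale (HFD + fenofibrate over Control -0.61, adjusted p = 0.034). Of 14 genes for electron donors and heme supply, Por was the only one to fall in HFD livers, while Cyb5b (0.63, adjusted p = 0.0042), Cpox (0.50, adjusted p = 0.0043) and Alad (0.37, adjusted p = 0.016) rose. Among all genes tested 6.64% fell and 6.13% rose. Cyb5b encodes a cytochrome b5, and Cpox and Alad are heme synthesis enzymes.

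With fenofibrate against HFD, Por was the only one of the 14 to rise, and the electron carriers Cyb5a (-0.52, adjusted p = 0.021) and Cyb5b (-0.50, adjusted p = 0.019) fell. Among all genes 6.89% rose and 6.59% fell. Against Control, 3 of the 14 were higher in treated livers and 3 lower, among them Cyb5a (-0.66, adjusted p = 0.0065), against 4.86% higher and 4.31% lower among all genes. With HFD + fenofibrate libraries 1 and 3 left out, none of the 14 was called against HFD (Por 0.85, adjusted p = 0.058), where 0.898% of all genes were. Against Control 2 of the 14 were higher and none lower (Por -0.80, adjusted p = 0.053), where 2.7% of all genes were called. Alas1, the rate-limiting enzyme of heme synthesis, varied widely between libraries (291 ± 132 in HFD + fenofibrate, 401 ± 210 in HFD, 449 ± 160 in Control livers) and passed the threshold in none of the 3 comparisons (adjusted p = 0.84 for HFD over Control, 0.45 for HFD + fenofibrate over HFD, 0.35 for HFD + fenofibrate over Control).

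Most of the other tested genes known as targets of PXR and CAR fell along with Cyp3a11 on the diet. Of 22 tested, 15 fell, none rose and 7 were not called in HFD livers. Their median log2 fold change was -0.69. Among all genes tested 6.64% were lower, and the median was -0.02. Cyp2b10, the classic CAR target, averaged 88.3 ± 50.6 scaled CPM in HFD and 764 ± 400 in Control livers (-3.11, adjusted p = 0.0013). The glutathione transferase Gsta2 averaged 11.5 ± 4.96 in HFD and 77.9 ± 6.35 in Control livers (-2.75, adjusted p = 1.0e-05). The glucuronosyltransferase Ugt1a9 (-2.73, adjusted p = 6.2e-07) and the uptake transporter Slco1a4 (-2.37, adjusted p = 5.0e-05) fell as well.

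With fenofibrate against HFD, 6 of the 22 fell and 1 rose, against 6.59% lower and 6.89% higher among all genes, and the median was -0.07. Cyp2c29 fell to 1873 ± 311 scaled CPM in HFD + fenofibrate, against 4282 ± 459 in HFD livers (-1.19, adjusted p = 0.00057), Cyp2c55 fell by 2.27 and Aldh1a7 by 1.01 on the log2 scale (adjusted p = 3.4e-05 and 0.0052). Slco1a4 was the 1 that rose (0.94, adjusted p = 0.027). Against Control, 15 fell and none rose in treated livers, against 4.31% lower among all genes, with a median of -0.93, among them Gsta2 (-2.74, adjusted p = 2.8e-05) and Cyp2b10 (-2.49, adjusted p = 0.0069). In the fit that leaves out HFD + fenofibrate libraries 1 and 3, 0.898% of all genes were called against HFD and 2.7% against Control. Of these targets, 23 were tested there. Against HFD, 2 were lower, Cyp2c29 (-1.0, adjusted p = 0.017) and Cyp2c55 (-2.35, adjusted p = 0.0015), and Slco1a4 was higher (1.38, adjusted p = 0.0096), while Aldh1a7 was at -0.68 (adjusted p = 0.090). Against Control, 9 were lower and none higher, Gsta2 among them (-2.69, adjusted p = 0.0012) but not Cyp2b10 (-2.59, adjusted p = 0.063).

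**Figure D5:**
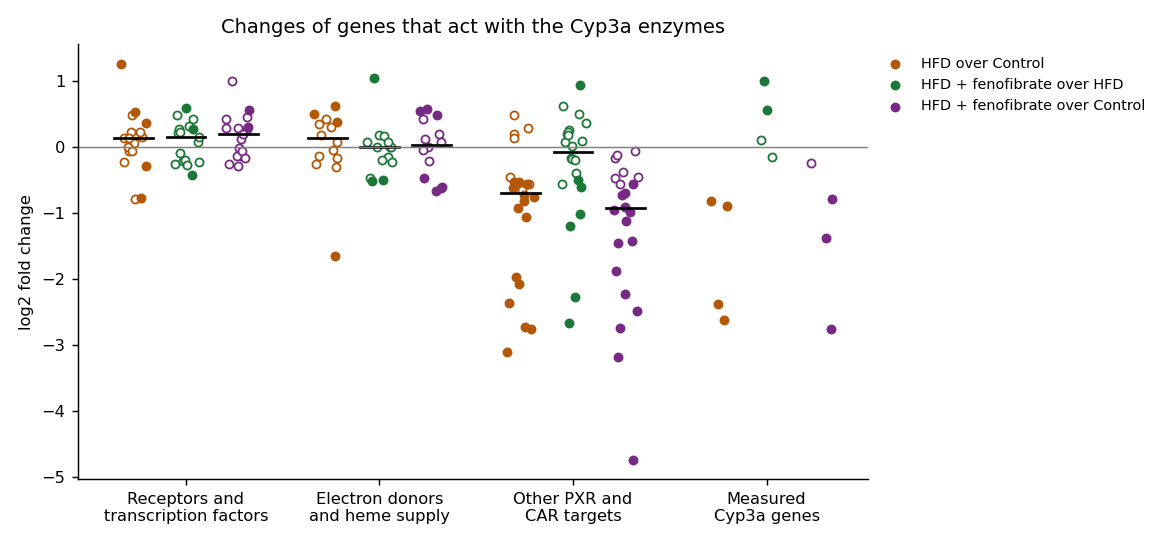
Log2 fold change of each tested gene in 3 lists, and of the 4 tested Cyp3a genes, for HFD over Control, HFD + fenofibrate over HFD and HFD + fenofibrate over Control. The lists are receptors and transcription factors known to act on Cyp3a genes, P450 electron donors and heme supply, and other PXR and CAR targets. Filled points have an adjusted p under 0.05, and bars are list medians. Most other PXR and CAR targets sit below 0 in both comparisons with Control (medians -0.69 and -0.93), while receptors and electron donors lie around 0 apart from Por at -1.66 and 1.05.

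Since Cyp3a41b and Cyp3a44 are known as female-predominant, sex-dependent liver genes outside the family were also described. Of 12 tested female-predominant genes, 3 rose and 3 fell in HFD against Control livers, 6 rose and none fell with fenofibrate against HFD, and 4 rose and 1 fell with fenofibrate against Control. Among all genes 6.13% rose and 6.64% fell, 6.89% rose and 6.59% fell, and 4.86% rose and 4.31% fell in these comparisons. Cux2, a female-predominant transcription factor, averaged 12.5 ± 5.87 scaled CPM in HFD + fenofibrate and 0.401 ± 0.198 in HFD livers (4.93, adjusted p = 4.9e-05), and 0.401 ± 0.198 in HFD and 16.3 ± 5.35 in Control livers (-5.31, adjusted p = 6.1e-06). Cyp2b9 averaged 103 ± 28.5 in HFD + fenofibrate and 13.6 ± 15.7 in HFD livers (2.93, adjusted p = 0.0038). Unlike Cux2, Cyp2b9 was higher in HFD than in Control livers, where it averaged 0.200 ± 0.200 (6.05, adjusted p = 0.00070). It was also higher in HFD + fenofibrate than in Control livers (8.97, adjusted p = 3.0e-05). Leaving out HFD + fenofibrate libraries 1 and 3, 5 of 14 tested female-predominant genes were higher and none lower against HFD, with Cux2 at 4.37 (adjusted p = 0.00055) and Cyp2b9 at 2.83 (adjusted p = 0.052), and 3 were higher and none lower against Control. In that fit 0.898% of all genes were called against HFD and 2.7% against Control. Of the female-predominant Cyp3a genes, Cyp3a44 had 4 reads in all HFD + fenofibrate, 2 in all HFD and 29 in all Control libraries. Part of its sequence is shared with Cyp3a11, so these few reads carry the uncertainty of assignment given above. Cyp3a41b, whose sequence is mostly shared with Cyp3a41a, is not set beside them.

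Of 16 male-predominant genes, 4 rose and 1 fell in HFD against Control livers, none rose and 9 fell with fenofibrate against HFD, and 1 rose and 7 fell with fenofibrate against Control. The shares of all genes called, with and without libraries 1 and 3, are those given for the female-predominant genes. The steroid dehydrogenase Hsd3b5 averaged 247 ± 49.4 in HFD and 28.4 ± 4.25 in Control livers (3.12, adjusted p = 5.0e-05), and the urinary protein gene Mup7 averaged 1601 ± 1083 in HFD + fenofibrate and 6932 ± 1036 in HFD livers (-2.11, adjusted p = 0.0037). With HFD + fenofibrate libraries 1 and 3 left out, none of the 16 was higher and 6 were lower against HFD, with Mup7 at -1.45 (adjusted p = 0.0037), and 1 was higher and 3 were lower against Control. Of 10 growth hormone signalling genes, Ghr, the receptor, was higher in HFD than in Control livers (0.74, adjusted p = 0.0013) and lower in HFD + fenofibrate than in HFD livers (-0.75, adjusted p = 0.0024), while Socs2, a feedback inhibitor, fell in HFD livers (-1.81, adjusted p = 0.0042). Of these 10, 1 rose and 1 fell in HFD against Control livers, against 6.13% and 6.64% of all genes. None rose and 2 fell with fenofibrate against HFD, against 6.89% and 6.59%. Against Control, 1 of these 10 rose, Bcl6, and 2 fell in HFD + fenofibrate livers, against 4.86% and 4.31% of all genes. Igf1, a growth factor, was 1 of the 2 that fell (-0.69, adjusted p = 0.0024). In that smaller fit none of the 10 was called against HFD (Ghr -0.54, adjusted p = 0.055), where 0.898% of all genes were. Against Control 1 of the 10 was higher, Bcl6 (1.96, adjusted p = 0.021), where 2.7% of all genes were called. None of the 10 was lower there (Igf1 -0.54, adjusted p = 0.060). Of 3 tested fetal hepatocyte genes, only Afp passed the threshold, in HFD against Control livers (2.56 ± 0.80 scaled CPM in HFD, 1.28 ± 0.43 in Control livers, 0.98, adjusted p = 0.037).

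The profile of Cyp3a11 over the 12 libraries was most like those of Gsta2 (Pearson r = 0.97 of log2 CPM), Etnppl (0.96), Atl2 (0.95) and Ces2a (0.95), among 7299 genes outside the family with a mean of at least 10 CPM. Gsta2 and the carboxylesterase Ces2a are on the list of PXR and CAR targets. The 12 libraries share 3 group means, and after these were removed r was 0.58 for Gsta2, 0.78 for Etnppl, 0.62 for Atl2 and 0.55 for Ces2a. Within the family r with Cyp3a11 was 0.91 for Cyp3a25, 0.85 for Cyp3a59 and 0.69 for Cyp3a13, and after group means were removed 0.55 for Cyp3a25, 0.45 for Cyp3a59 and 0.79 for Cyp3a13. Etnppl, an ethanolamine-phosphate lyase, averaged 149 scaled CPM in HFD + fenofibrate, 158 in HFD and 487 in Control livers. These correlations are descriptions.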

How the data were processed

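Liver RNA-seq libraries, 4 per group, came as 2 gene tables that share the HFD libraries. Raw read counts per gene were made by the authors with HISAT2 2.0.5, StringTie 1.3.2d and HTSeq 0.6.0, per the submitters' processing notes. Strand setting, annotation release and read length were not given in the sources used here. A fold change (a ratio), log2 fold change, p-value and adjusted p-value per gene were also deposited by the authors and are used only where named, and a deposited mean signal column was not used. Tables were joined by gene identifier, and a gene missing from one got counts of 0 there. Positions match GENCODE M21 (GRCm38) for 92.5% of identifiers.

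The test was edgeR 4.0.16 (R 4.3.3) with filterByExpr (13477 of 25164 genes), TMM and glmQLFit with a mean for each group of the 12 libraries, with Benjamini-Hochberg adjustment over all genes tested. "Rose" and "fell" mean an adjusted p under 0.05. Fitted changes carry a prior count of 0.125, and SE is the change divided by the root of F. Ratios of 2 genes' reads add 0.5 to each, and were compared by exact permutation of 4 against 4 libraries. Intervals and limits for low counts cover counting error only (95%, exact, conditional on the total, or 3 counts). The 18 pairs of libraries within groups differed by a chi-square of 15.2 to 42.5 per gene, above counting error; the common biological coefficient of variation was 0.155. Replicate numbers were not taken as pairs (r of -0.175 to 0.139 after group means were removed).

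Coding length came from GENCODE M21 in place of the RefSeq protein that had been planned. The test was also run on simulated counts, drawn with the same spread for every gene and with no library that stood apart. That run cannot show how the test behaves with libraries such as HFD + fenofibrate 1 and 3. Alternatives were DESeq2 1.42.0, limma-voom (limma 3.58.1), other scaling, filters and thresholds, a fit without the 20 most abundant genes, fits of only 8 libraries, a replicate block, each library left out in turn, and, added after the data were seen, HFD + fenofibrate libraries 1 and 3 left out for members, lists and ratios, and other lengths. The members, the 7 pathway lists and the 9 marker lists were chosen with earlier results of these data known. From each pathway list up to 4 passing genes per comparison with a mean of at least 5 CPM and the largest change could be named (the 2 most abundant where none passed), with Nr1i2, Nr1i3, Rxra, Hnf4a, Ppara, Por and Alas1 whatever their values, and the 4 genes most like Cyp3a11.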

Additional observations from a re-analysis of the deposited data

Results flagged for a closer look

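In 6 of 31 groups of 4 libraries checked, 1 library stood apart from the other 3 by Dixon's criterion at 95%, which chance alone meets in about 1 group in 20. Control library 1 had Cyp3a16 at 1.90 scaled CPM, from 34 reads, and Control library 2 was the only library with Cyp3a41b, at 0.0648 scaled CPM from 1 read. HFD library 2 held both HFD reads of Cyp3a44, at 0.118 scaled CPM. These 3 are groups in which most libraries had few or no reads.

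The other 3 are ratios between members. HFD + fenofibrate library 2 had the highest log2 ratio of Cyp3a11 to Cyp3a13, 2.90, against 2.42 to 2.48 in the other treated libraries. HFD library 4 had the lowest of its group, 3.16, against 3.33 to 3.35 in the other HFD libraries. HFD library 3 had the highest log2 ratio of Cyp3a59 to Cyp3a25, -5.09, against -5.62 to -5.61 in the other HFD libraries.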

How the results depend on the processing

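Of 300 values of the 4 tested members under alternatives, 293 kept their direction and their side of the threshold, 6 no longer passed and 1 changed sign. The sign change was Cyp3a11 in HFD + fenofibrate over HFD, 0.0135 with total counts only. The members lower in HFD than in Control livers were 2, against 4, when a 2-fold change was also asked for, and the members higher in HFD + fenofibrate than in HFD livers were 1, against 2, and those lower than in Control livers 2, against 3, without Cyp3a25 (-0.79). With no low-count filter, 6 members were lower in HFD and 4 in HFD + fenofibrate than in Control livers, with Cyp3a44 added in both and Cyp3a16 in HFD. Without HFD + fenofibrate libraries 1 and 3, 0 members and 124 genes in all were called for HFD + fenofibrate over HFD, and 373 genes over Control. Over all genes, the calls for HFD over Control, HFD + fenofibrate over HFD and HFD + fenofibrate over Control were 1721, 1816 and 1236. At an adjusted p under 0.01 they were 703, 462 and 454, and with a 2-fold change 402, 254 and 316. Leaving out 1 library gave 1112 to 1762, 610 to 2416 and 717 to 1710, with no call of a member changed. The count moved by over 1.5 times without HFD library 4 in the first (1112), without HFD + fenofibrate libraries 1 (898) or 3 (610) or HFD libraries 1 (855), 2 (1152) or 4 (929) in the second, and without HFD + fenofibrate libraries 1 (781) or 3 (717) or Control libraries 2 (768) or 4 (813) in the third. With total counts only, 2417 genes were called for HFD + fenofibrate over Control, the median of all genes moved by 0.17 for HFD + fenofibrate over HFD and 0.21 over Control, and the share of calls that were higher was 82.0% and 87.7% in these, against 51.1% and 53.0%, and 63.7%, against 48.0%, for HFD over Control. The cause was not tested. With the replicate number as a block, 4, 2 and 3 members were called, as without it (1511, 1674 and 1104 genes in all). With 3 against 4 libraries an exact p cannot go below 0.057, so the ratios were only checked for direction and size there, and all kept their direction. The ratio of Cyp3a41a to Cyp3a11, the sum with Cyp3a41b and the genes most like Cyp3a41a could not be computed.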
